A study of Mus musculus with 7 samples.

Results

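Divergent promoters, in which a pair of protein-coding genes is transcribed outward from neighbouring starts, were examined in mouse muscle stem cells (MuSCs). A pair was taken from the GENCODE M21 annotation on chromosomes 1 to 19 where a minus-strand coding start lay at or to the left of a plus-strand coding start and at most 1000 bp from it. The region was the interval between the starts plus 500 bp on either side. The rule gave 735 pairs holding 1450 genes, 6.97% of the 20807 coding genes, at 715 separate loci, because 20 genes belonged to more than 1 pair. They were compared with 19347 coding starts without such a partner, called single promoters here. Of these, 859 had a divergent noncoding start within the same distance, and 2503 had any gene's start on the opposite strand within 1000 bp. Pairs and single promoters together made 20082 coding promoters. Beyond the region, promoters were compared in windows reaching 500 bp to either side of the midpoint of a pair or of a single start, so that both classes had the same length.

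All libraries were made from sorted MuSCs, the stem cells that repair muscle fibres. TRF2 is the product of Terf2 and belongs to shelterin, the complex that caps telomeres. Open chromatin was read by ATAC-seq, which relies on transposase insertion, in 2 Control and 2 TRF2KO libraries from hind limb muscle of uninjured mice, labelled 0 hr. The methods of the study describe C57BL/6 mice with floxed Terf2 and a tamoxifen-inducible Cre expressed from Pax7, so the deletion is limited to Pax7-expressing cells. GEO's genotype entry for TRF2KO is wild type, which conflicts with the sample titles, and the titles decided the group. CUT&Tag, in which an antibody tethers the transposase, gave 2 TRF2 libraries and 1 IgG library from tibialis anterior, labelled wild type and 3 days after notexin, a toxin that damages muscle. The methods give a shorter time and a second muscle for CUT&Tag, and name the mice not as wild type but as controls carrying Pax7 Cre and a tdTomato reporter. Injured and uninjured cells were thus never profiled by both assays. The labels do not say whether replicates came from separate mice, so p-values measure the spread between libraries only.

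The ATAC lists held 84102 to 100521 peaks, the TRF2 lists 12290 and 15479 and the IgG list 656. The peak at the start of Terf2 ranked at percentiles 90.1 and 91.5 of its list in Control and 74.95 and 73.3 in TRF2KO, where the percentile is the position of a peak's fold enrichment among all peaks of its own library. It was lower in both TRF2KO libraries, as were 28.4% of the coding promoters with a peak in all 4. All 7 MuSC markers examined, Pax7 among them, had a peak in all 4 ATAC libraries. Of these, Pax7, Itga7, Cdh15 and Sdc4 also ranked lower in both TRF2KO libraries, whereas the genotypes overlapped at Myf5, Vcam1 and Calcr. Itga7 ranked at 93.75 and 95.1 in Control and 83.6 and 83.3 in TRF2KO. Of 16 markers of endothelial, immune, fibro-adipogenic and myofibre cells, 5 had a peak in all 4, namely Kdr, Tek, Cd68, Col1a1 and Ckm. Col1a1 ranked at 89.5 and 89.0 in Control and 89.0 and 87.6 in TRF2KO, near Pax7 at 90.1, 91.5, 88.0 and 89.5. Tek ranked from 76.4 to 79.8, and Kdr, Cd68 and Ckm from 24.5 to 53.2. Ptprc, Itgam, Csf1r, Pdgfra, Ly6a and Myh4 had no peak in any ATAC library.

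At a divergent promoter, a single nucleosome-depleted stretch of DNA serves a pair of core promoters that face outward, each with its own start site. Such promoters are typically rich in CpG dinucleotides, lack a TATA box and drive widely expressed genes, with DNA repair, mitochondrial and histone genes among the best-known cases. Histone H2A and H2B genes are transcribed in S phase from shared promoters that carry CCAAT boxes, bound by the factor NF-Y, and TATA boxes.

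The DNA between the starts is shown for 7 pairs, on the plus strand of GRCm38 and read from the minus-strand gene to the plus-strand gene. They are a repair pair under a strong ATAC peak, the pair with the highest TRF2 fold, a proteasome pair and a shelterin pair without TRF2 peaks, a repair pair with repeated CCAAT boxes, a histone pair and the closest pair without any ATAC peak. No annotated exon lies in these intervals. Capitals mark matches on either strand to the motifs searched: CCAAT, the GC box GGGCGG, the ETS site CCGGAAGT, the NRF1 core CGCATGCG, TATAAA, the cyclic AMP response element TGACGTCA and the YY1 site GATGGCGGC.
Brca1/Nbr1 (chr11:101551956-101552148): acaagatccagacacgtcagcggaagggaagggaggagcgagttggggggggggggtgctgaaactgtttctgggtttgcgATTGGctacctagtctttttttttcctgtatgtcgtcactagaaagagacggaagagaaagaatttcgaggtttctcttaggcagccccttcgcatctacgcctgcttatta
Cdca2/Kctd9 (chr14:67715842-67715936): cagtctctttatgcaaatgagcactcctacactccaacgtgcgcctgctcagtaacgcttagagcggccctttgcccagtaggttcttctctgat
Psmb1/Tbp (chr17:15499752-15499887): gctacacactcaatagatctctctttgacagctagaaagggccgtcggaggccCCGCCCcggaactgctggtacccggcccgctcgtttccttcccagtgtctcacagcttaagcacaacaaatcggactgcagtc
Acd/Pard6a (chr8:105701103-105701147): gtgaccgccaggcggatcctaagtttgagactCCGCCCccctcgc
Osgep/Apex1 (chr14:50924894-50924967): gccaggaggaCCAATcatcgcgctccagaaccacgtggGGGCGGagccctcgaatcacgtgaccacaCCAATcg
Hist1h2ac/Hist1h2bc (chr13:23683949-23684198): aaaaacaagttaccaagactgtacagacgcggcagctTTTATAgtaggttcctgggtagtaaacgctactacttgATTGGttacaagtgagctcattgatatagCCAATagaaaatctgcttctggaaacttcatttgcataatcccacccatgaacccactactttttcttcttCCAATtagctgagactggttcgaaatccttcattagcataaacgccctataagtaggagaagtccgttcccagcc
Best1/Rab3il1 (chr19:10001634-10001668): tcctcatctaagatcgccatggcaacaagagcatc
The Osgep/Apex1 interval held 2 CCAAT boxes and 1 GC box in 74 bp, and the Hist1h2ac/Hist1h2bc interval held 3 CCAAT boxes and 1 TATA match in 250 bp. The Cdca2/Kctd9 and Best1/Rab3il1 intervals held none of these motifs. No match says only that these letters are not in the interval. The TRF2 summits of Cdca2/Kctd9 lay 67 and 61 bp beyond the Kctd9 start, outside the interval shown.

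The starts of a pair were usually close. The distance between them had a median of 128 bp, with quartiles of 66 and 240 bp, and 603 of 735 pairs lay within 300 bp. In these windows, GC content had a median of 60.2%, against 54.5% at single starts and 59.2% in the 11119 single promoters open in every ATAC library. The observed over expected CpG ratio was 0.778 at the median, against 0.530 and 0.724. Divergent promoters were thus richer in GC and CpG than single promoters as a whole and close to open single promoters.

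Motifs were counted from 250 bp before to 50 bp after each start. The GC box, bound by Sp1, occurred at 69.0% of the 1450 starts in pairs, 41.8% of single starts and 62.8% of open single starts. The ETS site occurred at 13.3%, 4.17% and 6.66% of the same classes, and the YY1 site at 3.86%, 1.03% and 1.66%. The NRF1 core, the site of a factor for mitochondrial genes, was present at 5.38% of starts in pairs, 2.10% of single starts and 3.355% of open single starts. The cyclic AMP response element was present at 4.62%, 2.26% and 3.39% of the same classes. TATAAA ran the other way, at 4.14% of starts in pairs against 13.4% of single and 7.37% of open single starts. CCAAT differed little, at 43.5% and 38.2%. The windows of a close pair overlap, so these counts are not independent. A G-quadruplex pattern, counted where 4 G tracts 3 or more bases long were separated by 1 to 7 bases, lay in 49.9% of the pair windows, against 43.4% of single and 58.2% of open single windows. A run of 3 telomeric TTAGGG units was found in 0 of 735 pair windows and 2 of 19347 single windows.

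Nearly all divergent promoters were open. An ATAC peak was present at 711 of 735 pairs (96.7%, 95% Clopper-Pearson interval 95.2 to 97.9) in Control replicate 1, at 710 in Control replicate 2, at 709 in TRF2KO replicate 1 and at 710 in TRF2KO replicate 2. Single promoters had a peak in 59.9% to 61.5% of cases. The difference was 36.2 ± 0.784 percentage points (SD over 4 libraries) and had the same direction in 4 of 4 libraries. In an exact two-sided sign-flip permutation test, 2 of the 16 sign assignments gave a difference as large, the fewest that 4 libraries allow, so the test cannot pass a threshold of 0.05. A peak in all 4 libraries was found at 707 pairs (96.2%), where the share over all coding promoters was 58.9%. Single promoters with a divergent noncoding start lay between these classes, with 82.8% to 84.5% per library. The intervals given here cover counting error alone and take the regions as independent.

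**Figure D1:**
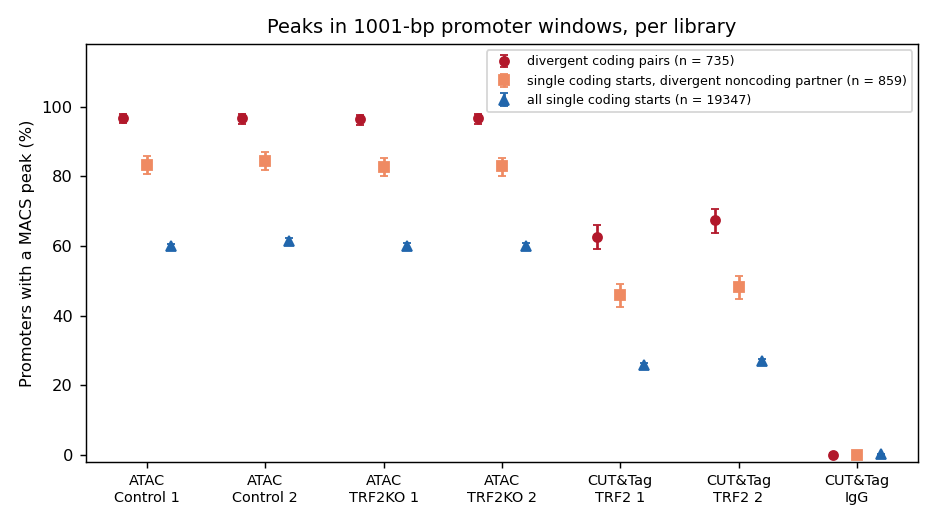
Share of promoters with a MACS peak within 500 bp of the midpoint or start (y axis, %) in each library (x axis) for divergent coding pairs (circles), single starts with a divergent noncoding partner (squares) and all single starts (triangles). Bars are 95% Clopper-Pearson intervals; the pairs lie at 96.5% to 96.7% in the 4 ATAC libraries and at 62.6% and 67.3% in the TRF2 libraries, above both other classes.

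The peaks at divergent promoters were also strong. The median fold rank of the strongest peak was at percentiles 94.3, 95.1, 94.6 and 94.3 in Control replicates 1 and 2 and TRF2KO replicates 1 and 2, against 87.0, 88.4, 87.7 and 87.2 at single promoters with a peak. The difference was 6.97 ± 0.271 percentile points (SD, n = 4 libraries), again with 2 of 16 sign assignments as large. Summit pileups recovered from the fold had medians of 333 to 375 fragments at pairs and 185 to 211 at single promoters. The peaks were 1399 to 1520 bp wide at the median, against 1289 to 1394 bp at single promoters. In bulk libraries, more cells with an open promoter and more cutting per cell cannot be told apart.

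The size of the difference in peak share followed GC content, which also differs between the classes. In 5 bands of GC content set on all coding promoters, the difference in ATAC peak share was 42.9, 46.9, 22.0, 7.60 and 3.79 percentage points from the lowest to the highest band. The highest band, above 62.6% GC, held 257 pairs, of which 99.6% had a peak on average, against 95.8% of single promoters. The difference in rank was 14.5 percentile points in the lowest band, which held 8 pairs, and 5.69 in the highest.

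A single peak usually covered both genes' starts. The strongest ATAC peak spanned both starts in 691 of 711 pairs in Control replicate 1 (97.2%) and in 96.6% to 97.5% of pairs across the 4 libraries. More than 1 ATAC peak in the region was listed for 1.13% of pairs or fewer. The summit lay between the starts in 49.1% and 50.1% of pairs in Control and 49.7% and 48.8% in TRF2KO, and between the starts or within 50 bp of them in 75.1% to 77.0%. Summits of the same pair in Control replicates 1 and 2 lay a median of 4.0 bp apart. Summits outside the interval fell unevenly, with 254 to 264 beyond the plus-strand start and 95 to 103 beyond the minus-strand start.

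Summits at single promoters were also displaced toward higher coordinates, on both strands. The median ATAC summit lay 22.0 to 24.0 bp to the right of plus-strand single starts and 45 to 49 bp to the right of minus-strand single starts. The mean of the strands was 34.5 to 36.5 bp. After each list's summits were moved back by its own value, a step chosen after the data were seen, 56.0% to 57.7% of summits lay between the starts, and 155 to 160 fell on the minus side against 141 to 158 on the plus side. In the TRF2 lists the corresponding value was -7.75 and 9.0 bp.

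**Figure D2:**
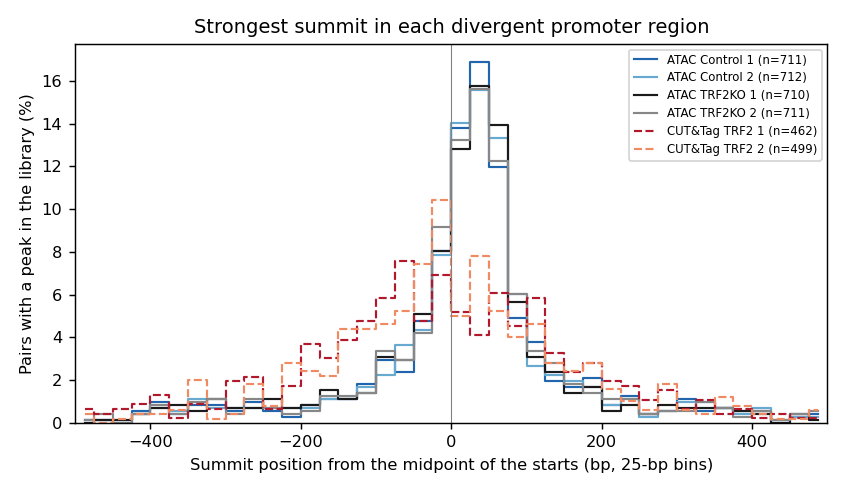
Position of the strongest peak summit from the midpoint of the starts (x axis, bp, negative toward the minus-strand gene) as a share of the pairs with a peak in that library (y axis, %, bins of 25 bp; summits over 500 bp away are not drawn). The 4 ATAC curves overlie each other with medians of 29.5 to 31.5 bp, and the TRF2 curves are broader with medians of -9.25 and -11 bp.

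TRF2 peaks were frequent at divergent promoters. A peak was listed at 460 of 735 pairs (62.6%) in TRF2 replicate 1 and at 495 (67.3%) in replicate 2, against 25.8% and 26.8% of single promoters. Both libraries had one at 397 pairs (54.0%, interval 50.3 to 57.7), at 19.7% of single promoters and at 20.9% of all coding promoters. With a divergent noncoding start the share was 36.7%. The IgG list had a peak at 0 of 735 pairs and at 18 of 19347 single promoters. The mean difference over the TRF2 libraries was 38.7 ± 2.67 percentage points (SD, n = 2), and 2 libraries cannot give an exact sign-flip p below 0.5. These peaks rested on few fragments, with a median summit pileup of 12.0 in both libraries, and 34.6% and 39.3% of them had 10 fragments or fewer.

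An ATAC peak accompanied TRF2 in every ATAC library at each of the 397 pairs. The same held at 3798 of the 3806 single promoters with TRF2 peaks in both libraries, so this was not particular to pairs. Pairs with TRF2 peaks in both libraries had a median Control ATAC rank at percentile 97.3, a median GC content of 61.1% and a median start distance of 150 bp, whereas the 177 pairs with none had 86.6, 57.0% and 99 bp. A GC box was present in the window of 94.5% of the former and 78.0% of the latter, and CCAAT in 74.8% and 60.5%. The G-quadruplex pattern was found in 52.1% and 48.0%, with intervals of 47.1 to 57.1 and 40.5 to 55.6 that overlap.

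Within bands of ATAC rank the difference between pairs and single promoters was smaller than the 34.3 points seen over all promoters for peaks in both libraries. In the band from percentile 95 to 100, which held 345 pairs, TRF2 peaks in both libraries were found at 78.6% of pairs (interval 73.8 to 82.8) and 70.7% of single promoters (69.0 to 72.3). From 90 to 95 it was 79 of 158 pairs and 42.3% of single promoters, and from 80 to 90 they were 27.8% and 22.8%. Below percentile 60 TRF2 peaks were found at 0 of 12 pairs and 3.00% of single promoters. These bands were chosen after the data were seen, and whether ATAC strength carries the TRF2 signal was not tested.

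**Figure D3:**
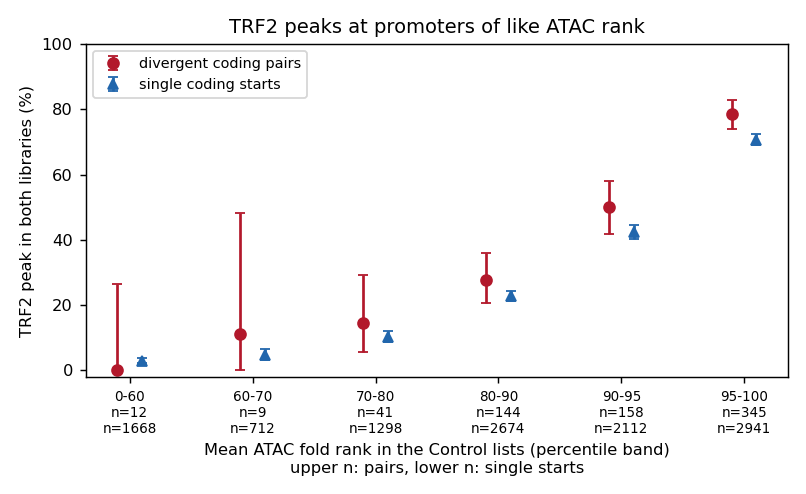
Share of promoters with a TRF2 peak in both libraries (y axis, %) by the mean ATAC fold rank in the Control lists (x axis, percentile bands), for divergent pairs (circles) and single starts (triangles) with 95% Clopper-Pearson intervals. Both classes climb from at most 3.00% below percentile 60 to 78.6% and 70.7% in the highest band.

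Distance between the starts went with both signals. TRF2 peaks in both libraries were found at 42.9% of the 126 pairs with starts at most 50 bp apart, 43.6% up to 100 bp, 120 of 200 pairs up to 200 bp, 64.6% up to 300 bp, 70.3% up to 500 bp and 54.4% of the 68 pairs further apart. The median Control ATAC rank moved likewise, from percentiles 89.3 and 90.8 in the closest class to 97.2 and 97.3 between 300 and 500 bp. Among pairs ranked from 95 to 100, the TRF2 share was 76.6% at distances up to 100 bp and 79.8% beyond, with intervals of 66.7 to 84.7 and 74.3 to 84.5. From 90 to 95 it was 34 of 81 pairs and 44 of 76 (57.9%), and from 80 to 90 it was 25.6% and 33.3%. The share was higher at the longer distances in all 3 bands, with overlapping intervals, and this was not tested.

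**Figure D4:**
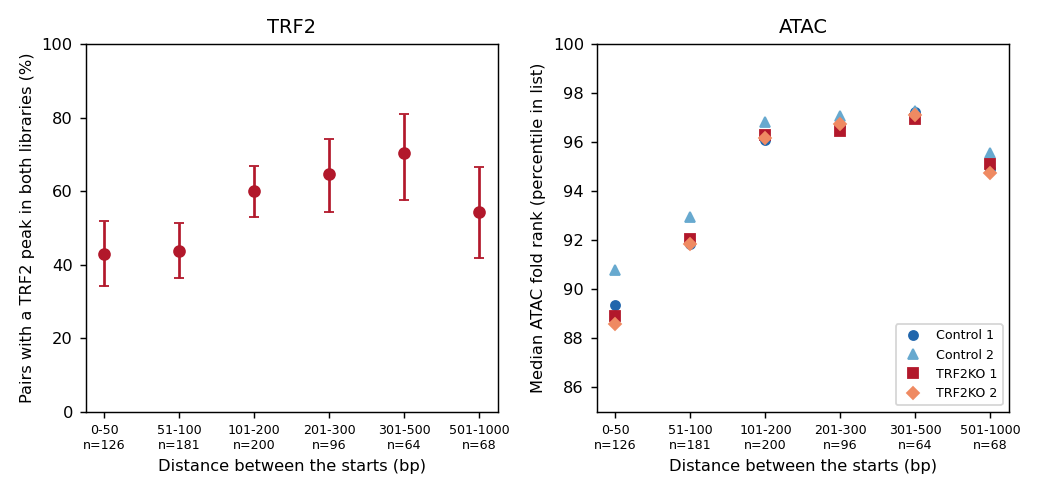
Left, share of pairs with a TRF2 peak in both libraries (y axis, %, bars are 95% Clopper-Pearson intervals) by the distance between the starts (x axis, bp); right, median ATAC fold rank (y axis, percentile, axis from 85) of the same classes in each library. Both are lowest for starts at most 50 bp apart and highest between 300 and 500 bp.

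A TRF2 peak was less centred than an ATAC peak. Its summit lay between the starts in 37.2% and 41.9% of the pairs with a peak, and the peak spanned both starts in 61.0% and 56.3%. Summits of the same pair in the TRF2 replicates lay a median of 75 bp apart, and 69 to 84 bp from the Control ATAC summits. The distance from the ATAC summit was thus close to the spread between TRF2 replicates.

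The pairs with the highest TRF2 folds had strong ATAC peaks with 1 exception. Cdca2/Kctd9, starting at 67715841 and 67715937 on chromosome 14, had TRF2 folds of 15.3 and 13.7, and Cdca2 encodes a protein that brings a phosphatase to mitotic chromosomes. Plag1/Chchd7, with a zinc finger transcription factor, had folds of 12.7 and 14.7. Adam9/Tm2d2, with a membrane metalloprotease, had 12.6 and 14.2, and Zfp654/Cggbp1, with a protein that binds CGG repeats, had 11.9 and 13.9. The ATAC ranks of these 4 pairs lay between percentiles 98.7 and 99.9 in every library. Fbxl13/Armc10 was the exception, with TRF2 folds of 13.1 and 13.1 at ATAC ranks of 92.9, 92.4, 92.6 and 92.4.

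The pairs with the highest Control ATAC ranks were Stap2/Mpnd, Hjurp/Trpm8, Dcaf6/Mpc2, Usp5/Cdca3 and Aamp/Pnkd, all above percentile 99.8 in every library. Hjurp encodes the chaperone of the centromeric histone CENP-A, and its peak was 6105 to 7298 bp wide with the summit within 1.0 bp of the midpoint. Mpc2 is a subunit of the mitochondrial pyruvate carrier, Usp5 a deubiquitinase and Cdca3 a regulator of mitotic entry. TRF2 folds were 8.51 and 10.4 at Hjurp/Trpm8, 7.26 and 7.03 at Dcaf6/Mpc2, 9.24 and 11.01 at Usp5/Cdca3 and 8.48 and 8.43 at Aamp/Pnkd. Stap2/Mpnd had no TRF2 peak, and its ATAC peak was only 259 bp wide in 3 libraries and 796 bp in TRF2KO replicate 1, with summits beyond the Mpnd start. It was the only pair above a Control percentile of 95 with a peak narrower than 500 bp in any library.

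Of 36 genes listed for DNA repair and replication, 17 belonged to 11 divergent pairs, and all 11 had ATAC peaks in the 4 libraries, with median ranks of 96.1, 96.5, 96.4 and 96.4, against medians of 94.3 to 95.1 over all pairs. TRF2 peaks in both libraries were found at 6 of the 11, close to the 54.0% of all pairs. Brca1/Nbr1, which joins a homologous recombination gene to an autophagy receptor gene, ranked at 99.7, 99.6, 99.6 and 99.4, with TRF2 folds of 7.48 and 8.77. Its ATAC and TRF2 summits lay 533 to 703 bp to the Nbr1 side of the midpoint, outside the interval printed above. The ATAC summits lay 586 to 606 bp beyond the Nbr1 start, outside the region, so these ranks belong to a peak centred elsewhere. The TRF2 summits lay 436 bp beyond that start in replicate 1 and 605 bp in replicate 2, the latter also outside the region. Atm/Npat, a kinase of the DNA break response beside a coactivator of histone genes, ranked at 99.6, 99.5, 99.4 and 99.5, with TRF2 folds of 9.48 and 8.02 and ATAC summits within 22.5 bp of the midpoint.

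Hscb/Chek2 and Mcm4/Prkdc, which hold a checkpoint kinase, a helicase subunit and the DNA-dependent protein kinase, ranked between 97.7 and 99.02 and had TRF2 peaks in both libraries. Wrap53/Trp53, a telomerase trafficking factor beside p53, ranked at 96.5, 96.6, 96.4 and 96.7 and had no TRF2 peak. Its ATAC summit lay at -896 bp from the midpoint in all 4 libraries, outside the region, so these ranks belong to a peak centred elsewhere. Osgep/Apex1, with a base excision repair nuclease, ranked at 91.1 to 92.1 and had low TRF2 folds of 5.46 and 4.13. Abhd12/Gins1, with a replication factor, ranked at 96.05 to 97.0 and had TRF2 peaks in both libraries. Prpf38a/Orc1, with a subunit of the origin recognition complex, ranked at 92.8 to 94.1 and had 1 in replicate 2. Rad51c/Tex14 and Acd/Pard6a had none, and Emc3/Fancd2, the lowest of the list at 80.1 to 84.9, had 1 in replicate 2. The 11 pairs therefore ran over a wide range of ranks, and TRF2 peaks in both libraries were missing from 4 of the 5 lowest.

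Telomere genes were looked up after the pairs had been seen. Of 25 such genes, 4 were in 5 divergent pairs, and none of the 5 had a TRF2 peak in both libraries. Acd encodes the shelterin protein TPP1, and Acd/Pard6a ranked at 87.9, 89.2, 87.9 and 88.1. Kars/Terf2ip, which holds the TRF2 partner RAP1, ranked at 89.5, 90.1, 88.8 and 89.2 and had a TRF2 peak in replicate 2 only, at a fold of 6.96. Dclre1b, which encodes the Apollo nuclease of telomeres, paired with both Ap4b1 and Gm43064 under 1 ATAC peak at 93.1, 93.9, 92.7 and 92.9. Wrap53/Trp53 was the remaining pair, ranked by a peak with its summit outside the region. Among all pairs, TRF2 peaks in both libraries were found at 27.8% of those ranked from 80 to 90, where Acd/Pard6a and Kars/Terf2ip lie, at 79 of 158 ranked from 90 to 95, where both Dclre1b pairs lie, and at 78.6% of those ranked from 95 to 100, where Wrap53/Trp53 lies.

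Of 67 histone genes, 27 were in 14 pairs. Of these, 12 had ATAC peaks in all 4 libraries and 8 had TRF2 peaks in both. Hist1h2ac/Hist1h2bc ranked highest at 95.7, 95.8, 96.4 and 96.0, with TRF2 folds of 8.12 and 7.81. Hist1h2ba/Hist1h2aa, known as testis forms, ranked lowest at 41.7, 46.5, 34.7 and 45.9. Bola1/Hist2h2ab and Hist2h2ac/Hist2h2be shared 1 ATAC peak with its summit at the latter, so their ranks are the same value. The remaining pairs, Hist1h2bq/Hist1h2ao and Hist1h2ap/Hist1h2br, had no peak in any library. Histone genes are near-identical copies, and how ATAC reads with several alignments were treated is not given in the sources used here, so a closed promoter and lost reads cannot be told apart.

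All 13 pairs of a histone gene with another histone gene carried at least 2 CCAAT boxes between the starts, with a median of 3.0. Of 203 other pairs with starts 150 to 350 bp apart, 62 did (30.5%). TATAAA lay in 8 of the 13 histone intervals and 2.46% of the others, and a GC box in 0 of the 13 and 66.0% of the others. These 13 pairs thus differed in sequence from the other divergent promoters. The median ATAC ranks of the 14 pairs given above, 90.4, 91.9, 91.1 and 89.4, were below those of all pairs. The 14 include Bola1/Hist2h2ab, so the peak it shares entered these medians more than once.

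Among mitochondrial ribosomal genes 18 of 78 (23.1%) were in 18 pairs, all open in the 4 libraries and 8 with TRF2 peaks in both. The highest, Mrps18b/Ppp1r10, ranked at 99.9, 99.8, 99.8 and 99.9, with TRF2 folds of 6.98 and 6.98. Mrps12/Sars2, with a mitochondrial tRNA synthetase, followed at 98.97, 98.8, 98.97 and 98.96 with a TRF2 peak in replicate 2 only. Of 104 genes named as respiratory chain subunits or assembly factors, 23 (22.1%) were in 23 pairs, all open, with median ranks of 92.6, 93.2, 92.9 and 92.6, and 13 had TRF2 peaks in both. The highest, Tepsin/Ndufaf8, with a complex I assembly factor, ranked at 98.8, 99.1, 99.1 and 98.8, with TRF2 folds of 5.89 and 6.18. Uqcrq/Gdf9, a complex III subunit beside an oocyte growth factor, had the TRF2 folds 10.6 and 10.9 at ATAC ranks of 97.8, 97.9, 97.6 and 98.0. The rank was lower in both TRF2KO libraries at 9 of the 23 and higher at 0, against 217 and 56 of 708 over all pairs. Over all coding promoters with a peak in all 4 libraries the shares were 28.4% and 9.35%. In other lists these counts were 4 and 1 of 18 mitochondrial ribosomal, 2 and 3 of 14 histone and 4 and 0 of 10 cytosolic ribosomal pairs. They were 2 and 1 of 7 proteasome, 6 and 1 of 19 zinc finger and 1 and 1 of 11 repair pairs. None of these counts was tested. The peak lists of the genotypes differ in length, as given with the genotype comparison.

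Proteasome genes were in 7 pairs, all open, 3 of them with TRF2 peaks in both libraries. Psme2/Rnf31, with an activator subunit, ranked at 99.7, 99.8, 99.7 and 99.6, with TRF2 folds of 7.81 and 8.89. Psmb1/Tbp, which joins a catalytic subunit to the TATA-binding protein, ranked at 94.4, 95.8, 94.3 and 94.2 without a TRF2 peak. Symbols of cytosolic ribosomal genes were in 10 pairs, 1 of them through the kinase gene Rps6kb1, and 3 had TRF2 peaks in both. Rpl36al/Mgat2 had the highest mean Control rank, at 96.2, 97.3, 96.9 and 96.8. Zinc finger symbols were in 19 pairs, of which 18 were open in all 4 libraries and 9 had TRF2 peaks in both. Zfp654/Cggbp1, given above, ranked highest, and Zfp142/Bcs1l, with an assembly factor of complex III, followed at 99.6, 99.7, 99.5 and 99.4 with TRF2 folds of 6.81 and 6.14.

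Gart/Son, with a purine synthesis enzyme, was open in all 4 libraries at 98.6, 98.7, 98.3 and 98.4, with TRF2 folds of 5.67 and 4.95. Surf4/Stkld1 ranked at 86.6, 90.5, 91.5 and 89.8, and Col4a4/Col4a3, for basement membrane collagen chains, ranked at 50.2, 60.6, 43.6 and 49.2 with a TRF2 peak in replicate 1 only. The 29 stem cell and myogenic genes listed, Pax7, Myod1 and Notch1 among them, were in 0 pairs. The chaperone list was also in 0 pairs, because the annotated starts of Hspd1 and Hspe1 overlap by 111 bp.

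Starts that crossed were outside the rule, as at Hspd1/Hspe1, Ppat/Paics, Surf1/Surf2 and Col4a1/Col4a2. There were 445 such pairs with starts up to 1000 bp past each other, and 95.5% had ATAC peaks in all 4 libraries and 47.4% TRF2 peaks in both. Their genes count as single promoters unless they also form a divergent pair. Of single promoters without any opposite-strand start within 1000 bp, 53.1% had ATAC peaks in all 4 libraries and 16.9% TRF2 peaks in both. At the upper limit, Btf3l4/Txndc12 at 987 bp and Asphd1/Sez6l2 at 981 bp were just inside, with Control ranks of 94.8 and 95.7 and of 60.7 and 62.8. Gpr108/Trip10 at 1009 bp and Sgsm2/Tsr1 at 1011 bp were just outside, with Control ranks of 99.4 and 99.5 and of 77.1 and 81.8.

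At 22 pairs no ATAC library had a peak. Their median GC content was 52.2% and their median CpG ratio 0.227. Best1/Rab3il1, with starts 36 bp apart, was the closest, followed by Rnf151/Rps2 at 53 bp and 4930430F08Rik/1700017N19Rik at 61 bp. At 10 of the 22, another annotated start of either gene had a peak in all 4 libraries. For Rps2, a protein of the small ribosomal subunit, that start lay 1947 bp away, and for Ccnt1, a cyclin of the elongation factor P-TEFb, 3243 bp away. The start used here is the outermost one of the gene model.

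Loss of TRF2 was compared over the 708 pairs with an ATAC peak in all 4 libraries within the region. Their median ranks were 94.4 and 95.1 in Control and 94.6 and 94.3 in TRF2KO, so the values of the groups interleaved. The difference, TRF2KO minus Control, was -0.278 percentile points (exact two-sided permutation test, p = 0.667), and 2 libraries against 2 are too few for any p below 0.05. Single promoters differed by -0.410 (p = 1.0, exact permutation). Without Control replicate 2 the difference for pairs became 0.100, and without Control replicate 1 it became -0.657. The peak share differed by -0.136 percentage points (p = 0.667, exact permutation), from 96.7% and 96.9% in Control to 96.6% and 96.7% in TRF2KO.

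Pair by pair, the rank was lower in both TRF2KO than in both Control libraries at 217 of 708 pairs (30.7%), where the share over all coding promoters with 4 peaks was 28.4%. It was higher in both at 56 pairs (7.91%), against a background of 9.35%. Both shares were near the background of promoters in general. A percentile depends on the length of its list, and both Control lists were longer, at 89160 and 100521 peaks against 84776 and 84102. Whether this contributed to the excess of lower over higher ranks was not tested. A peak in both Control and neither TRF2KO library was found at 1 pair (background 0.418%) and the reverse at 0 pairs (background 0.204%). No test was made of these counts. The 1 pair was Pcdh12/Rnf14, a protocadherin beside a ubiquitin ligase, with weak folds of 2.99 and 3.42 in the Control libraries.

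Drops and rises were ordered by the gap between the nearest libraries of the genotypes, not by the difference of the group means. The 5 largest drops by this measure were -6.77 to -2.84 percentile points. Tssk3/Fam229a, with a testis kinase, ranked at 59.5 and 64.7 in Control and 52.7 and 43.3 in TRF2KO. Nisch/Sema3g, with a semaphorin, moved from 45.3 and 52.4 to 36.4 and 40.3, Ddx25/Pus3 from 63.6 and 69.0 to 57.2 and 59.1, and Asphd1/Sez6l2 from 60.7 and 62.8 to 57.8 and 57.8. In these 4 pairs the groups did not overlap, which is how they were chosen, and the Ddx25/Pus3 summits lay 939.5 to 972.5 bp from the midpoint, outside the region. At Snx1/Ciao2a the ranks were 99.1 and 84.4 in Control and 81.5 and 79.5 in TRF2KO. Its Control replicate 1 peak was 3656 bp wide, with its summit at -1626 bp from the midpoint, outside the region, whereas the summits of the other libraries lay within 89 bp of it.

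The 5 largest rises by the same measure were 1.41 to 7.13 points. Kctd19/Lrrc36 ranked at 44.2 and 44.1 in Control and 56.5 and 51.3 in TRF2KO, and Pex11a/Wdr93, with a peroxisome division gene, at 58.9 and 60.03 and at 67.5 and 64.0. Tada2a/Acaca, a histone acetyltransferase adaptor beside the first enzyme of fatty acid synthesis, went from 69.4 and 74.99 to 78.4 and 76.8. Fam162a/Ccdc58 went from 91.4 and 92.3 to 95.1 and 94.0, and Lrrc74b/P2rx6 from 91.3 and 90.7 to 92.7 and 93.6. Of these 5 pairs, Lrrc74b/P2rx6 had TRF2 peaks in both libraries, and of the 5 pairs given for drops, Asphd1/Sez6l2 did.

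**Figure D5:**
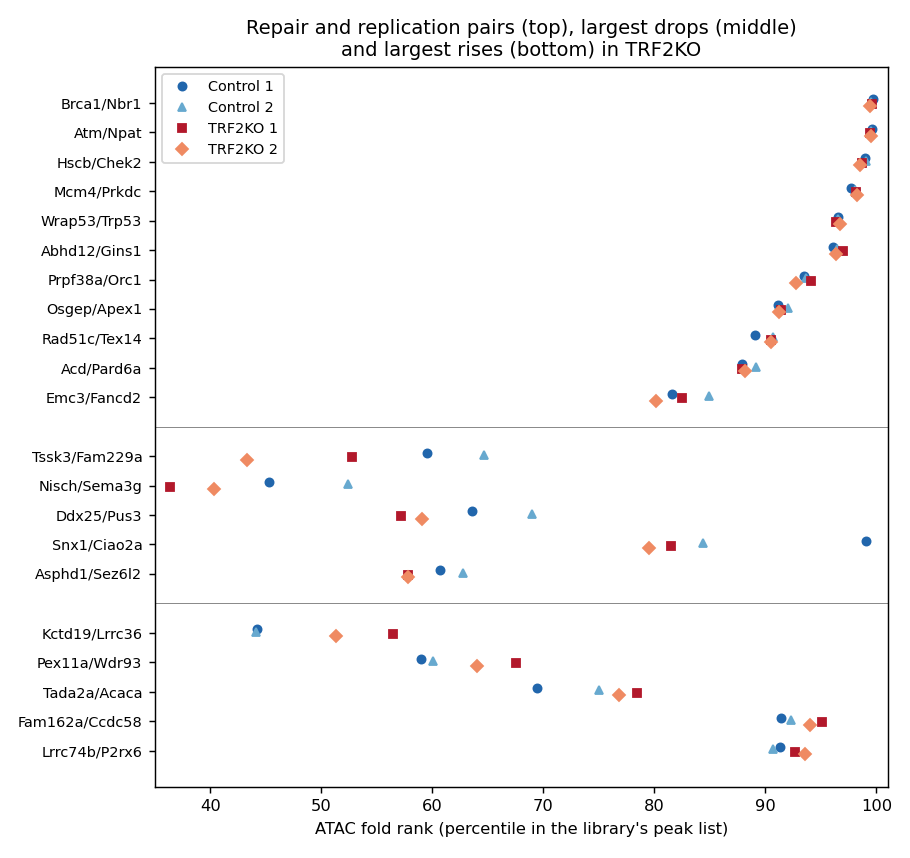
ATAC fold rank (x axis, percentile in the library's own list, axis from 35) in each of the 4 libraries for the 11 repair and replication pairs (top), the 5 pairs with the largest drops (middle) and the 5 with the largest rises in TRF2KO (bottom), both by the gap between the nearest libraries of the genotypes. The repair pairs span 80.1 to 99.7 with the libraries close together, whereas the pairs that moved most are mainly below percentile 80.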

How the data were processed

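The data were peak lists from 7 libraries of mouse MuSCs. According to the submitters' processing notes, reads were handled with cutadapt 4.4 (CUT&Tag), Bowtie2 2.4.4 (CUT&Tag) or 2.5.4 (ATAC-seq), Picard 3.1.1 and SAMtools 1.10 on mm10, and peaks were called with MACS3 3.0.0 or 3.0.2. The methods of the study state for CUT&Tag that duplicates and reads without a unique alignment were removed. The same for ATAC-seq, any correction of read ends for the transposase and the use of IgG in peak calling are not given in the sources used here, and each could move summits or counts. Each MACS peak carries a fold (a ratio of summit to local background), a -log10 p and a -log10 q, all deposited by the authors. The GoPeaks and SEACR 1.3 regions and the consensus lists were used for their positions only; the score and signal columns deposited by the authors were not used.

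Peaks on chromosomes 1 to 19, X and Y were kept. Genes came from GENCODE M21 and sequence from GRCm38, read with pysam 0.24.0. A promoter had a peak when at least 1 bp was shared. The strongest fold gave the rank within its own list, so folds were not compared between libraries. Shares used windows of 500 bp on either side for both classes, and the region of the rule was used for single pairs, summits and genotypes. Summit pileups of TRF2 peaks were solved from fold and p, matching p to 0.01 on the log10 scale. Those of ATAC peaks were computed from the fold and the library's median background. That background was solved from fold and p over peaks with a -log10 p below 200. No library read totals were used, so depth is given by these pileups and by peak numbers. A missing peak means only that a list's threshold was not passed. Tests were exact permutations over libraries in Python 3.11.15 and were tested on simulated data; shares carry 95% Clopper-Pearson intervals from SciPy 1.17.1.

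The members, gene lists and tests were chosen with earlier results of these data known. Named pairs were those holding genes of the lists, given from the highest Control rank down, with all 11 repair pairs; further telomere and histone pairs, and Ccnt1, Rps2 and the other pairs without a peak, were chosen after their values were seen; also named were the 5 highest Control ranks, the 5 highest mean TRF2 folds, the 5 largest drops and rises between non-overlapping genotypes, pairs in 1 genotype only, the 3 closest pairs without a peak and those next to the 1000-bp limit. Alternatives covered the window, summit, threshold, caller, GC content, gene filters, replicate block and each replicate left out. No test compares pairs with single promoters other than over libraries.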

Additional observations from a re-analysis of the deposited data

Results flagged for a closer look

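SEACR regions, which entered no main comparison, overlapped 7 of the 22 pairs without a MACS peak in any ATAC library, and this signal in an unused list is why they are given. They overlapped 4 and 5 of these pairs in Control replicates 1 and 2 and 2 and 3 in TRF2KO replicates 1 and 2. Rnf151/Rps2 had a SEACR region in all 4 libraries and Ccnt1/4930415O20Rik in 3. SEACR regions were long, with medians of 4770 to 9450 bp, so an overlap need not lie at the starts.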

How the results depend on the processing

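Of 98 alternatives, 80 were scored as unchanged, 12 as moved and 6 as reversed. For differences, unchanged meant the same direction, though not always the same size. For the count of pairs open in 1 genotype and the summit shares, it meant a similar size. Against main values of 36.2, 6.97 and 34.3, the differences between divergent and single promoters that kept their direction ran from 3.79 (highest GC band) to 46.9 points for the ATAC share, up to 14.5 (lowest GC band) for the ATAC rank and from 4.23 (ATAC percentiles 70 to 80) to 43.0 points for the TRF2 share. The higher ATAC peak share, ATAC rank and TRF2 peak share of divergent promoters kept their direction in 56 of 57; the exception was the TRF2 share below ATAC percentile 60, with a difference of -2.998 points over 12 pairs. Over promoters open in all 4 libraries the TRF2 difference was 22.0 points, and within bands from percentile 60 upward it was 4.23 to 7.89, both chosen after the data were seen. The genotype difference in rank became 0.045 on the log2 scale of folds and 0.100 without Control replicate 2, with a range of -0.657 to 0.100 over libraries left out. The genotype difference in peak share became 1.16 points with SEACR regions, 0.068 at a -log10 q of at least 5 and 0.340 with the summit in the region; the cause was not tested. The count of pairs open in 1 genotype was 0 with GoPeaks and 0 when absence from the other callers was required. It was 4 in the authors' consensus lists and 1 to 3 with a library left out. At a -log10 q of at least 5 it was 1, in TRF2KO only, whereas the 1 pair of the main count was in Control only.

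The share of ATAC summits between the starts, 49.4% as the mean of the libraries, became 64.7% for starts 100 bp or more apart, 76.3% within 50 bp of the interval and 56.8% after the offset was removed. For TRF2, 39.6% became 46.4% at a -log10 q of at least 5, 53.6% for starts 100 bp or more apart and 58.1% within 50 bp.

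With the replicate number as a block, the genotype difference in rank was -0.278 (0.230 and -0.787 within the replicate numbers, exact p = 1.0) and that in peak share -0.136 (p = 0.5, exact), so no call changed. Only 2 numbers are shared and nothing says that they mark a common source. Over the pairs, the deviations of same-numbered libraries from their group means correlated at 0.004. The low TRF2 pileups limit single TRF2 peaks more than ATAC peaks.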

Other observations

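A few pairs were listed in some ATAC libraries only. Nt5c3b/Klhl10 ranked at percentiles 76.7 and 79.1 in Control and 79.5 in TRF2KO replicate 2 and had no peak in TRF2KO replicate 1. Smc1b/Ribc2, with a meiotic cohesin subunit, had weak peaks in 3 libraries, at percentiles 12.2, 5.03 and 13.8, and Sncg/Mmrn2 in 3, at 8.88, 22.0 and 24.6. Kirrel2/Nphs1, for proteins of the kidney filter, had a peak at 16.1 in TRF2KO replicate 2 only. These pairs were chosen after their values were seen.

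The 4 pairs in the authors' consensus list of Control and not in that of TRF2KO were Smyd1/Cd8b1, Pecam1/Milr1, Dgcr2/Tssk2 and Best1/Rab3il1. Pecam1/Milr1, which holds an endothelial marker gene, had a MACS peak in all 4 libraries, at percentiles 29.0 and 27.6 in Control and 43.6 and 22.0 in TRF2KO. The other 3 had no MACS peak in any library. A SEACR region lay at each of these 3 in 1 library.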
